A study of Homo sapiens with 4 samples.

Results

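Clusters of neighbouring ZNF217 peaks away from gene starts were examined in MV4-11 and U937, 2 human acute myeloid leukemia (AML) cell lines. A peak was called distal when its midpoint lay more than 1 kb from the transcription start site (TSS) of every protein-coding transcript in GENCODE 44. Distal peaks of one line with gaps of 12.5 kb or less between their edges were joined, and a joined run of 4 or more peaks was kept as a cluster. The members were therefore chosen by the measured peak positions of one line, and their number, spacing and size are given as a description. MV4-11 had 1440 clusters, which held 9372 of its 24736 distal peaks, and U937 had 460 clusters, which held 2522 of its 12487 distal peaks. On chromosomes 1 to 22 and X the lists held 36356 peaks in MV4-11 and 21737 peaks in U937 in all.

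ZNF217 was mapped by CUT&Tag, in which an antibody tethers a transposase that tags the surrounding DNA. The series labels 4 samples, all untreated: ZNF217 and IgG libraries of MV4-11, a monocytic line with a KMT2A fusion, and ZNF217 and IgG libraries of U937, a histiocytic line with a PICALM fusion. Each line has 1 ZNF217 library, so no difference between the lines has a replicate check, and the IgG samples were not analysed here. The deposited lists give only the chromosome, start and end of each peak on hg38, without a height or a read count, so the depth is unknown, and a signal found at open or repeated DNA in general cannot be told apart from ZNF217 occupancy.

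ZNF217 is a C2H2 zinc finger protein that binds DNA and recruits corepressor complexes with histone deacetylases and the demethylase LSD1. Groups of distal sites that lie close together are a familiar feature of genes that define a cell's identity, where several enhancers act on one promoter. The joining distance used here is the one commonly used to stitch neighbouring enhancers. The lists carry no signal by which stitched regions could be ranked, so the clusters are groups of peaks only and were not classed as super-enhancers.

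The sequences below show the DNA under members of clusters found in both lines. They are the central 200 bp of peaks, read from the hg38 reference, and capitals mark exact matches to short motifs on either strand. Among the members that overlapped a U937 peak, the first 3 were picked for holding the most kinds of motif, a choice made after the data were seen, so their matches are no finding. The TNFRSF1B member has a C/EBP match, a CTCF match and a PU.1 match in that order, the UACA member has an AP-1, a MYB and a further AP-1 match, and the CD93 member has an AP-1 and a GATA match. The next 2 are the widest such members at TNFRSF1B and CEBPA, and they hold none of the 10 motifs in these 200 bp.
TNFRSF1B cluster, MV4-11 peak, chr1:12184308-12184507, + strand: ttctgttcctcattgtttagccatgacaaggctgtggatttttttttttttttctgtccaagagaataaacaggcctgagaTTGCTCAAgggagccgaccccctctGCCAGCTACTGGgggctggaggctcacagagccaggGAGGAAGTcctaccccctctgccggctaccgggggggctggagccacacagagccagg
UACA cluster, MV4-11 peak, chr15:70492743-70492942, + strand: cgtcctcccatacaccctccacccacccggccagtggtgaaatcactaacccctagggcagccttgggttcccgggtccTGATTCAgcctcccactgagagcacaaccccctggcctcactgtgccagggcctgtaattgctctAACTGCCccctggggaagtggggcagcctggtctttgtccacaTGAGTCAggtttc
CD93 cluster, MV4-11 peak, chr20:23116519-23116718, + strand: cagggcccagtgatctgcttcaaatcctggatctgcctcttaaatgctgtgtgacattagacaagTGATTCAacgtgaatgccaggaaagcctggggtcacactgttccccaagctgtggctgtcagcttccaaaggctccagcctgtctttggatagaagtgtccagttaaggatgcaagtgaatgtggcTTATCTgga
TNFRSF1B cluster, MV4-11 peak, chr1:12143471-12143670, + strand: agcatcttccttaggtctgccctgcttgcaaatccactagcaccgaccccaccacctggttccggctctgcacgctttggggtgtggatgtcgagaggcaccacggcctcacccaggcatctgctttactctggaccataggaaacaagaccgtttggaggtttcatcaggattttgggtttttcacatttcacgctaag
CEBPA cluster, MV4-11 peak, chr19:33274652-33274851, + strand: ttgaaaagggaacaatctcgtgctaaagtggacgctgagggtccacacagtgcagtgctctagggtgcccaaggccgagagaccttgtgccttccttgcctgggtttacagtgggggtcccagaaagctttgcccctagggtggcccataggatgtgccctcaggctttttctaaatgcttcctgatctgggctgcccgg

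The 2 clusters with the most overlapping members lay in arrays of repeated sequence, and the widest MV4-11 member of each is shown because most of the sequence around it occurs more than once in the cluster. The central 50 bp of the RHOU sequence occur 16 times in its cluster, and those of the CCDC200 sequence once.
CCDC200 cluster, MV4-11 peak, chr17:43240223-43240422, + strand: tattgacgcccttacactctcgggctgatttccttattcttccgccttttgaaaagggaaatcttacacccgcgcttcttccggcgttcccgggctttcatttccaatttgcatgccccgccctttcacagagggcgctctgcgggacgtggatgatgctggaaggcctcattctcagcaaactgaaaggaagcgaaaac
RHOU cluster, MV4-11 peak, chr1:228634227-228634426, + strand: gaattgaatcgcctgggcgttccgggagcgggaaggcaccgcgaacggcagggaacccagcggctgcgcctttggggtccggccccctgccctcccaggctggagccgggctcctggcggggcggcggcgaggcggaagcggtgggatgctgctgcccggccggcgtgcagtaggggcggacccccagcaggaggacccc

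The last 3 sequences come from clusters whose span held no peak of the other line, and each is the widest member. The MV4-11 member at TPPP has a PU.1 match, and the MV4-11 member at MATK is made up of short TG-rich repeats. The central 50 bp of the U937 member at KCNJ18 occur 13 times in its cluster, against once for the other members shown here.
TPPP cluster, MV4-11 peak, chr5:672951-673150, + strand: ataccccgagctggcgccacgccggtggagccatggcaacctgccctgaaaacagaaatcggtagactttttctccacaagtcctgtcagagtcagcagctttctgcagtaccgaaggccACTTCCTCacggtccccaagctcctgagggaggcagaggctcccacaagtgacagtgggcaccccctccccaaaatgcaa
MATK cluster, MV4-11 peak, chr19:3807798-3807997, + strand: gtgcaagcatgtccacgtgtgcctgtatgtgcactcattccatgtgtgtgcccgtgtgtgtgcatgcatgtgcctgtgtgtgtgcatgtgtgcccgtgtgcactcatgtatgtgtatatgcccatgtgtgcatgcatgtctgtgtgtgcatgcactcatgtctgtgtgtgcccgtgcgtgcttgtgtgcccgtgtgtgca
KCNJ18 cluster, U937 peak, chr17:22403179-22403378, + strand: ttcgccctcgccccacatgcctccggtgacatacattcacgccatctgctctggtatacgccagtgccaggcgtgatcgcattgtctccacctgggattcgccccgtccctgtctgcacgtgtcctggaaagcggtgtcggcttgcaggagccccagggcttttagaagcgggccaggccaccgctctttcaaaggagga

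The size of the clusters was similar in the 2 lines, but their number was not. A cluster spanned a median of 22560 bp in MV4-11 (4047 to 130629) and 20396 bp in U937 (4826 to 70840). Its member peaks covered a median of 3989 bp of that span in MV4-11 and 4130 bp in U937, or 18.9% and 20.7%. Exactly 4 peaks made up 486 clusters in MV4-11 (33.8%) and 212 in U937 (46.1%), and 10 or more made up 195 in MV4-11 and 29 in U937. The largest cluster held 36 peaks in MV4-11 and 22 in U937. Just outside the rule were 999 runs of 3 peaks in MV4-11 and 457 in U937. The widest gap that was joined measured 12498 bp in MV4-11 and 12489 bp in U937, and the narrowest gap that was not joined measured 12502 and 12511 bp.

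Clusters took up a small part of the genome and a large part of the distal binding. Together they spanned 38.16 Mb in MV4-11 and 10.80 Mb in U937, which is 1.26% and 0.356% of chromosomes 1 to 22 and X. They held 37.9% of distal peaks and 43.9% of the bases under distal peaks in MV4-11, and 20.2% and 25.4% in U937. MV4-11 had 3.13 clusters for each U937 cluster, 1.98 distal peaks for each U937 distal peak and 1.26 promoter peaks for each U937 promoter peak. When MV4-11 was cut to its widest peaks, as many as the U937 list holds, it had 530 clusters against 460 in U937, or 1.15 to 1. That alternative changed the number and the width of the peaks together, and leaving out peaks under 400 bp alone left 910 MV4-11 clusters.

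The next question was whether the lines formed clusters at the same places. A cluster of U937 overlapped 326 of the 1440 MV4-11 clusters, or 22.6% (95% Wilson interval 20.6 to 24.9), and a cluster of MV4-11 overlapped 324 of the 460 U937 clusters, or 70.4% (66.1 to 74.4). These intervals, like all below, cover counting error only, and peaks of 1 cluster are not independent. The 333 overlapping pairs had 6.49 Mb in common, which was 17% of the MV4-11 span and 60.1% of the U937 span. With lists of equal length the shares became 37.2% in MV4-11 and 43.0% in U937, and so lay closer together. They were 12.9% and 40.4% when each cluster had to cover 50% of the other, and 11.6% and 51.1% with a joining distance of 5 kb.

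Most clusters of one line held at least some binding of the other. The span held a U937 peak in 1217 MV4-11 clusters (84.5%, 82.6 to 86.3) and an MV4-11 peak in 444 U937 clusters (96.5%, 94.4 to 97.8). In 773 MV4-11 clusters (53.7%) the span held 1 to 3 distal U937 peaks that formed no cluster, and in 107 U937 clusters (23.3%) it held 1 to 3 distal MV4-11 peaks that formed none. Every member overlapped a peak of the other line in 33 MV4-11 and 106 U937 clusters. No member did so in 318 MV4-11 (22.1%) and 21 U937 clusters (4.57%), and the whole span lacked a peak of the other line in 223 and 16. Over all distal peaks, 26.2% in MV4-11 and 52.5% in U937 overlapped a peak of the other line. Spans are far longer than single peaks, and the part of their length in these shares was not tested.

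Clusters with more peaks overlapped clusters of the other line more often. In MV4-11 a U937 cluster was overlapped by 10.7% of clusters with 4 peaks (8.25 to 13.8), 18.7% of those with 5 or 6, 33.5% of those with 7 to 9 and 48.7% of those with 10 or more (41.8 to 55.7). In U937 the shares were 60.8% (54.1 to 67.2), 73.6%, 88.3% and 86.2% (69.4 to 94.5). Larger clusters are also longer, with a median span of 15180 bp for 4 peaks and 54247 bp for 10 or more in MV4-11, and 15168 and 55341 bp in U937, and the part of span in this order was not tested. The share of single members that overlapped a peak of the other line did not follow the same course. It lay between 29.5% and 31.6% across the 4 classes in MV4-11 and between 63.3% and 66.4% in U937.

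**Figure D1:**
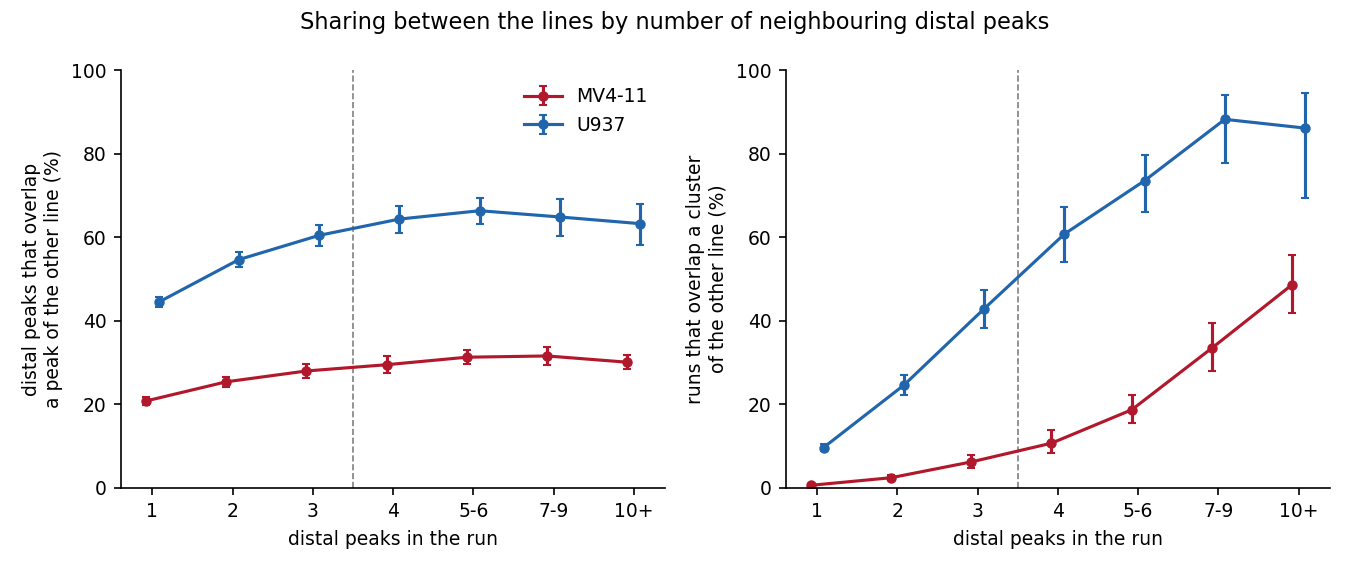
Percent of distal peaks that overlap a peak of the other line (left) and percent of runs that overlap a cluster of the other line (right), by number of neighbouring distal peaks in the run, in MV4-11 (red) and U937 (blue). Bars are 95% Wilson intervals, and runs right of the dashed line are the clusters; the share of runs reaches 48.7% in MV4-11 at 10 or more peaks and in U937 88.3% at 7 to 9 peaks and 86.2% at 10 or more, and the share of peaks stays between 29.5% and 31.6% in MV4-11 and between 63.3% and 66.4% in U937 across the clusters.

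Members of clusters were shared more often than distal peaks outside clusters, which lay alone or in runs of 2 or 3. In MV4-11 2869 of 9372 clustered peaks overlapped a U937 peak, or 30.6% (29.7 to 31.6), against 3615 of 15364 distal peaks outside clusters, or 23.5% (22.9 to 24.2), and 26.2% of all distal peaks. In U937 1639 of 2522 clustered peaks overlapped an MV4-11 peak, or 65.0% (63.1 to 66.8), against 49.4% outside clusters (48.4 to 50.3) and 52.5% of all distal peaks. Requiring each peak to cover 50% of the other left 17.3% of clustered peaks in MV4-11 and 35.7% in U937. Promoter peaks were shared in 70.6% of cases in MV4-11 and 90.3% in U937, above both kinds of distal peak.

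Clustered peaks were wider than distal peaks outside clusters, and width moved with sharing. The median width was 587 bp in clusters and 500 bp outside them in MV4-11, and 698 bp and 529 bp in U937. Within the narrowest of 4 equal width classes of distal MV4-11 peaks, 11.0% of clustered peaks (9.65 to 12.4) and 10.1% of the others (9.19 to 11.0) were shared. Within the widest class these shares were 54.1% (52.3 to 55.9) and 50.7% (49.0 to 52.5). In U937 the gap was clear among narrow peaks, with 44.2% of clustered peaks (39.3 to 49.1) and 28.9% of the others (27.2 to 30.6) shared. It was small among the widest, with 79.7% (77.0 to 82.1) and 76.8% (74.9 to 78.5). The widest member of a cluster overlapped a peak of the other line in 56.5% of MV4-11 and 80.9% of U937 clusters, and the fourth-widest in 23.4% and 54.8%.

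Among clusters outside repeated sequence, those nearest to TNFRSF1B, CEBPA, UACA, AHRR and CD93 had the most members in common. Repeated sequence here means that 20% or more of the 31-base words of a span recurred within it. TNFRSF1B encodes the second tumor necrosis factor receptor of myeloid and lymphoid cells. Its cluster held 15 peaks in MV4-11 (chr1:12142765-12197466) and 15 in U937 (chr1:12142607-12209370), and 12 members of each line overlapped a member of the other. In both lines the cluster began in an exon of the gene upstream and went on with intergenic members, 4 in MV4-11 and 3 in U937, and with 10 members in introns of TNFRSF1B. The widest member measured 1610 bp in MV4-11 and 2749 bp in U937. A promoter peak lay within the span in MV4-11, and none did in U937.

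CEBPA encodes C/EBPα, which is needed for the step to granulocyte and monocyte progenitors, and its cluster lay mainly downstream of the gene. In MV4-11 it held 20 peaks (chr19:33232825-33305634) that covered 37.5% of the span, and in U937 it held 14 peaks (chr19:33248569-33299574) that covered 31.6%. Of these, 10 MV4-11 members and 11 U937 members overlapped, and the U937 span lay wholly within the MV4-11 span. The MV4-11 cluster included an exonic peak in CEBPA and peaks past its TSS. The U937 cluster ended before the gene's TSS, and all 14 of its members were intergenic.

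The cluster nearest to UACA lay far from any protein-coding start, 222107 bp from the UACA TSS in MV4-11 and 224001 bp in U937. It held 13 peaks in MV4-11 (chr15:70440431-70519917) and 12 in U937 (chr15:70447758-70508803), with 10 members of each line overlapping. At AHRR, which encodes a repressor of dioxin-receptor signaling, MV4-11 had 34 peaks (chr5:359323-486795) and U937 13 (chr5:354497-417349). Of these, 9 MV4-11 and 11 U937 members overlapped. That MV4-11 cluster also overlapped a U937 cluster of 4 peaks nearest to EXOC3 (chr5:472227-486838), with 5 and 4 members overlapping. In all, 16 of its 34 members overlapped a U937 peak. CD93 is a surface receptor of monocytes and endothelial cells. Its cluster held 13 peaks in MV4-11 (chr20:23116192-23163144) and 17 in U937 (chr20:23113612-23163534), of which 10 MV4-11 and 9 U937 members overlapped. Outside repeated sequence it was the largest pair with more peaks in U937.

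The remaining pairs of this rank lay near genes with other roles. ZDHHC19, a palmitoyltransferase, had 14 peaks in MV4-11 and 11 in U937, with 9 and 8 overlapping. IL32, a cytokine gene, had 15 peaks in MV4-11 and 9 in U937, with 8 of each overlapping, and ANXA2R, an annexin receptor gene, had 8 in MV4-11, which all overlapped, and 15 in U937. Over the 333 pairs the median was 7 peaks in MV4-11 and 5 in U937. MV4-11 held more peaks in 219 pairs, U937 in 70, and 44 pairs were equal. The nearest gene was the same in both lines for 287 pairs (86.2%).

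**Figure D2:**
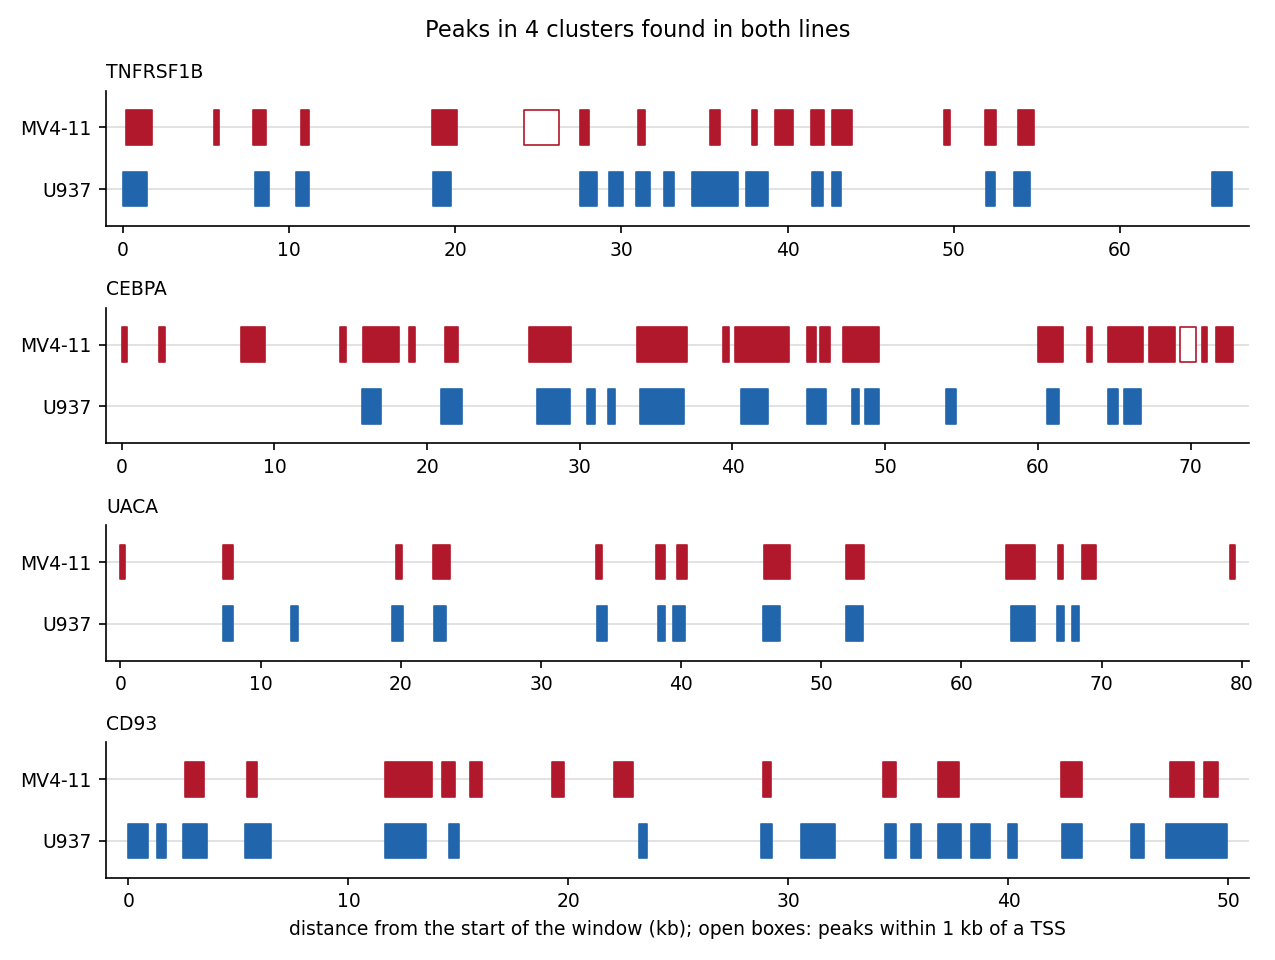
Peaks of MV4-11 (red, upper row) and U937 (blue, lower row) in the clusters nearest to TNFRSF1B, CEBPA, UACA and CD93, by distance in kb from the start of the joint window. Filled boxes are distal peaks and open boxes are peaks within 1 kb of a TSS, drawn to scale; at UACA 10 members of each line stand above one another, and at CEBPA the MV4-11 row of 20 peaks reaches past both ends of the U937 row of 14.

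**Figure D3:**
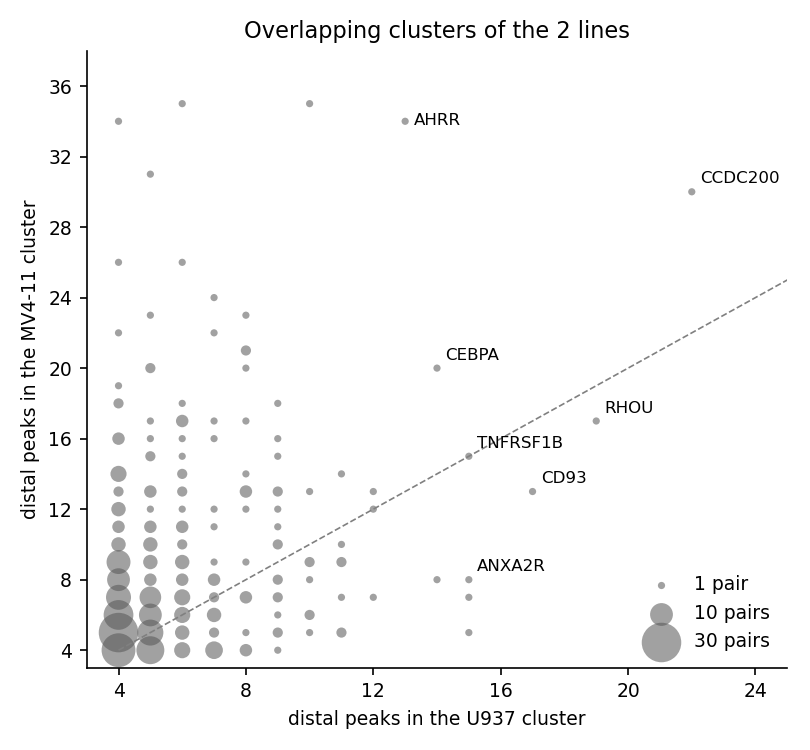
Number of distal peaks in the MV4-11 cluster (vertical axis) and in the U937 cluster (horizontal axis) for the 333 overlapping pairs, with the area of a point proportional to the number of pairs. The dashed line marks equal numbers. Above it lie 219 pairs, among them AHRR (34 in MV4-11, 13 in U937). Below it lie 70, among them CD93 (13 in MV4-11, 17 in U937). The MV4-11 cluster of AHRR also forms a second pair, with a U937 cluster of 4 peaks.

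The largest MV4-11 cluster lay in a gene-dense region of chromosome 19, and few of its members were shared. This cluster, nearest to ARID3A, a DNA-binding protein of the AT-rich interaction domain family, held 36 peaks over 130629 bp (chr19:888912-1019541), together with 8 promoter peaks and the TSSs of 7 genes. In it 5 of its 36 members overlapped a U937 peak, and U937 had 6 distal peaks there and no cluster. Shared members here are to be read against 26.2% of all distal MV4-11 peaks. Of the clusters named next, those at BAHCC1, PIEZO1 and BRF2 lay above that share. BAHCC1 had 31 peaks with 10 shared, HSH2D, an adaptor of hematopoietic cells, had 26 with 6 shared, and PIEZO1, a mechanically gated channel, had 23 with 9 shared. ABHD17A had 24 with 6 shared, BRF2 had 24 with 10 and VPS28 had 24 with 4. PPARA, a receptor that controls fatty acid oxidation, was nearest to 24 intergenic peaks (chr22:46055245-46131530), of which 2 were shared. The number in the ARID3A cluster depended on the rule, with 107 peaks at a joining distance of 25 kb and 9 among the widest peaks of lists of equal length.

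In U937 the largest clusters were smaller, and the share of their members on MV4-11 peaks is to be read against 52.5% of all distal U937 peaks. SH2B3, an adaptor that restrains cytokine signaling, had 15 peaks with 11 shared. NHERF1, a scaffold protein gene, had 14 with 8 shared. SRGN, the proteoglycan of secretory granules, had 12 with 6 shared. TNFRSF1B, ANXA2R, CD93, CEBPA, AHRR and UACA made up most of the others of this rank. Shared U937 members were 12 of 15 at TNFRSF1B, 11 of 14 at CEBPA, 11 of 13 at AHRR and 10 of 12 at UACA. ANXA2R with 8 of 15 and CD93 with 9 of 17 lay near the share over all distal U937 peaks. ATP6V0D2, with 12 peaks in repeated sequence, had none that overlapped an MV4-11 peak.

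A span without any peak of the other line was found for 15.5% of MV4-11 and 3.48% of U937 clusters, where 26.2% of all distal MV4-11 and 52.5% of all distal U937 peaks were shared. With lists of equal length, 91.3% of MV4-11 and 93.3% of U937 clusters held a peak of the other line, so most of this contrast was not seen there. Of the 223 in MV4-11, the largest were nearest to TPPP, a tubulin-binding protein (13 peaks, chr5:663866-706684), and MATK, a kinase of the megakaryocyte and brain (12 peaks, chr19:3768146-3822350). FAM120B followed with 11 peaks, WNT7B, a WNT ligand, with 10, and DAGLA and PALM with 9 each. BCOR, the corepressor of BCL6, had 2 such clusters on chromosome X, of 10 and 8 peaks. TRIP13 and NKD2, an inhibitor of WNT signaling, had 8 each on chromosome 5. AHRR, TPPP, TRIP13 and NKD2 lie close together there, and the first 2 Mb of chromosome 5 held 9 clusters and 131 distal peaks in MV4-11 against 2 clusters and 39 distal peaks in U937. That stretch was picked for these genes. Over all chromosomes MV4-11 had 3.13 clusters and 1.98 distal peaks for each of U937.

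Of the 16 such clusters in U937, the 2 largest and 1 further cluster of the 10 largest lay in repeated sequence, namely those nearest to ATP6V0D2 (12 and 5 peaks) and KCNJ18 (10 peaks). The clusters named next had under 20% of 31-base words repeated within the span. Repeats shared with the rest of the genome were not counted. CD69, an early activation antigen of leukocytes, had 5 peaks (chr12:9730734-9759278). RNF220, a ubiquitin ligase gene, had 5 (chr1:44404884-44433324), the widest of 4327 bp. Clusters nearest to TRIM8, SLC9A8 and CA2 had 5 each, and those nearest to MGAT5 and RPTOR, a subunit of mTORC1, had 4 each. The TRIM8 cluster lay within another gene, SUFU. Those of CA2 and MGAT5 lay 186674 and 206989 bp from the TSS. TPPP kept 5 to 15 peaks under every alternative rule tried, while the CD69 and RNF220 clusters were lost at a joining distance of 5 kb, at 6 peaks and with peaks under 400 bp left out.

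**Figure D4:**
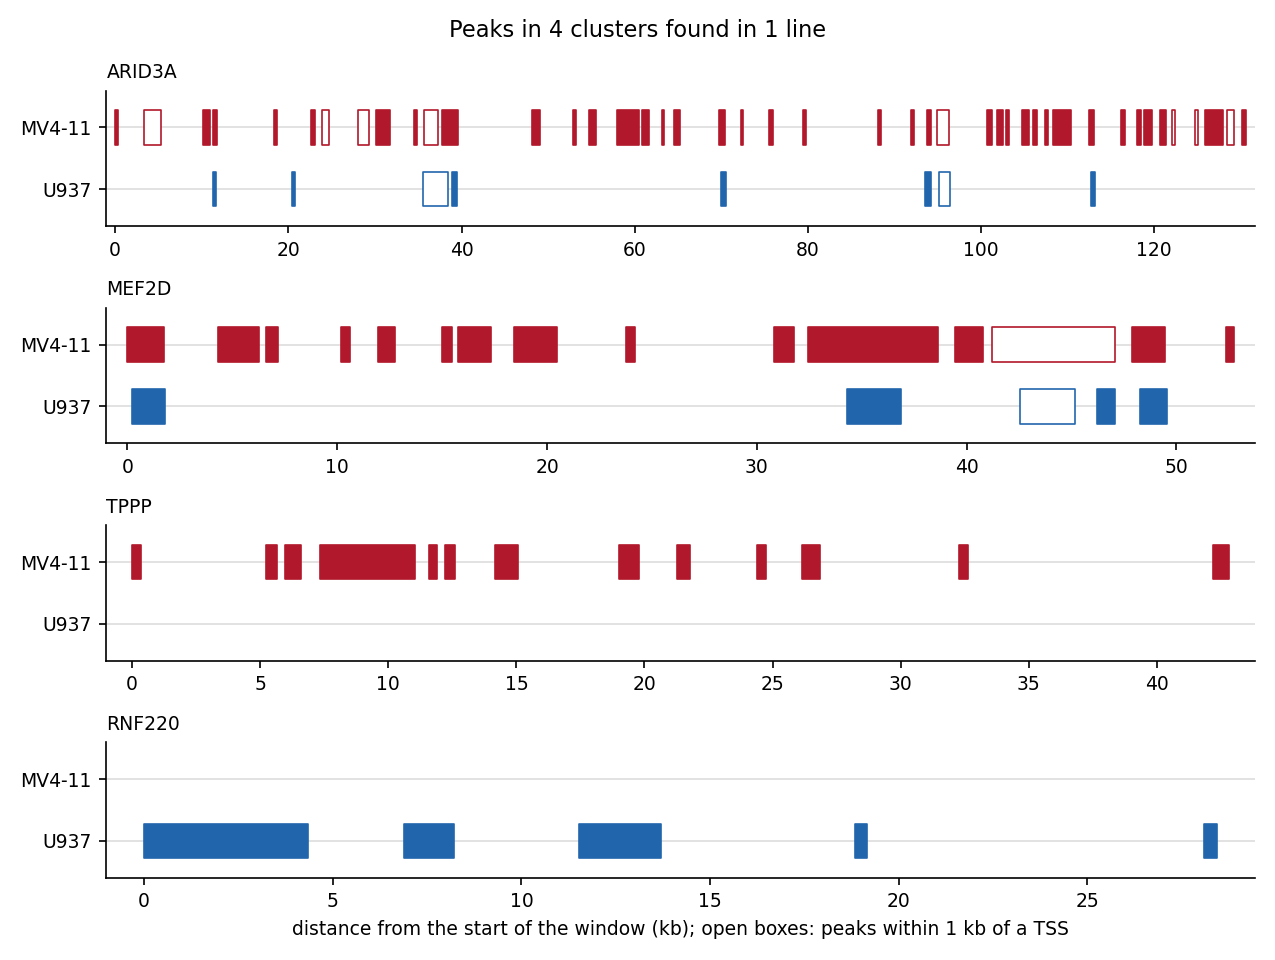
Peaks of MV4-11 (red, upper row) and U937 (blue, lower row) in clusters found in 1 line, by distance in kb from the start of the cluster, with open boxes for peaks within 1 kb of a TSS. At ARID3A 36 distal MV4-11 peaks stand over 6 of U937 and at MEF2D 14 over 4, U937 has none at TPPP, and MV4-11 has none above the 5 U937 peaks at RNF220.

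Some of the largest clusters were arrays of repeated sequence. In 14 MV4-11 and 8 U937 clusters, 20% or more of the 31-base words of the span occurred more than once in it. The cluster in an intron of CCDC200 on chromosome 17 held 30 peaks in MV4-11 and 22 in U937, with 13 annotated small nuclear or ribosomal RNA genes, and 90.3% and 90.2% of its words were repeated. The cluster nearest to RHOU on chromosome 1 held 17 peaks in MV4-11 and 19 in U937, with 17 and 18 such genes and 97.8% and 95.1% repeated words. MV4-11 had 35 and 22 peaks in 2 clusters on the short arm of chromosome 21, where the nearest protein-coding gene, TPTE, lay 2097359 bp from the first. U937 had clusters of 10 and 6 peaks within the first of these spans and of 7 and 4 within the other, each with under 2% repeated words over its shorter span. Reads from one copy can align to another, and the IgG background of these arrays was not tested. Without the clusters at or above the limit, which keeps those 4 of U937, 22.4% of MV4-11 and 69.9% of U937 clusters overlapped a cluster of the other line.

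The genes that the study placed in the AML regulatory circuit were checked next. Over all 19962 protein-coding genes, 6.55% were nearest to a cluster of MV4-11, 2.13% to a cluster of U937 and 1.42% to clusters of both. Of the 5 circuit factors, ZNF217, MEF2D and FOXP1 had a cluster in MV4-11 and none had 1 in U937, and ELF1 and RUNX2 had none in either line. The study chose these genes in part with CUT&Tag, so the count is not independent evidence. MEF2D, a MADS-box factor of myeloid and muscle cells, had 14 MV4-11 peaks (chr1:156456352-156509080) from beyond its 3′ end to past its TSS, 8 of them intronic and the widest of 6190 bp. U937 had 4 distal peaks in that span, in no cluster, and 3 of the MV4-11 members were shared.

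The clusters at the other circuit factors were at the lower limit of the rule. The ZNF217 cluster in MV4-11 was intergenic, 137776 bp from the ZNF217 TSS (chr20:53738415-53754921), with 4 peaks of 445, 288, 653 and 444 bp, none of them shared, and 1 distal U937 peak lay in the span. FOXP1, a forkhead factor, had 4 intronic peaks (chr3:71432381-71445279), of which 2 were shared. Both clusters fell below 4 peaks when peaks narrower than 400 bp were left out or lists of equal length were used. The first 399 bases of 2 of the study's ZNF217 reporter fragments, E1 and E5, matched the reference exactly. Neither lay in a cluster of either line, and E1 lay on a peak in both. The matched part of E5 (chr20:53734329-53734727) lay on no peak, shortly before the start of the ZNF217 cluster of MV4-11. The rest of each fragment was not placed.

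Other candidate circuit factors had more clusters. Of these 8 genes, RREB1, RARA, ZBTB7A, CIC, JUNB and IRF1 had a cluster in MV4-11, and RREB1, RARA and ZBTB7A also in U937, while ERG and ETV6 had none. RREB1, a zinc finger factor of RAS signaling, had 14 MV4-11 peaks within its introns (chr6:7112604-7166851) and 4 U937 peaks (chr6:7145949-7166900), and all 4 U937 members were shared. RARA, the retinoic acid receptor of myeloid differentiation, had 12 peaks in MV4-11 and 7 in U937, of which 7 and 6 were shared. ZBTB7A, a repressor of blood lineage choice, had 12 in MV4-11 and 8 in U937, with 4 and 7 shared. CIC had 10 peaks in MV4-11, and JUNB and IRF1 had 4 each. The JUNB cluster lay within another gene, HOOK2, with the TSS of JUNB in its span.

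Of 5 genes whose expression the study followed after loss of ZNF217, MYB had a cluster in MV4-11, and none had 1 in U937. The study picked MYB with CUT&Tag too, so this is not independent evidence. MYB encodes a factor of blood progenitors, and its cluster ran from its introns past its 3′ end (chr6:135213676-135222970). The 4 MV4-11 members measured 344, 425, 334 and 307 bp, no U937 peak lay in the span, and the cluster was lost when peaks under 400 bp were left out. The narrowest peak of the U937 list measured 330 bp, so the member of 307 bp was below the range of that list. HSPD1, CHI3L1, ZNF117 and CD36 had no cluster in either line. RUNX1 had 5 peaks in MV4-11 in its intron (chr21:34835519-34845462), of which 1 was shared, and no cluster in U937, and MYC had none in either line.

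Transcription factors of blood cells were the largest list examined. Of 38 such genes, 14 had a cluster in MV4-11 (36.8%, against 6.55% of all genes) and 6 in U937 (15.8%, against 2.13%). RUNX3 had 2 clusters in MV4-11, of 6 and 9 peaks. SPI1, which encodes PU.1, had 4 peaks in MV4-11, and GFI1 had 4. CEBPB, an inflammatory C/EBP factor, had 5 and 4 peaks in 2 clusters of MV4-11 and 8 in U937, at 75398 bp or more from its TSS. IRF8, a factor of the monocyte lineage, had 14 and 5 peaks in 2 clusters of MV4-11 and 4 in U937. ID2 had 4 and 6 in MV4-11 and 5 in U937, and IKZF1 had 8 in MV4-11 and 4 in U937 at places that did not overlap.

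Genes of the cytoskeleton, adhesion and phosphoinositide signaling had the largest share of any list not taken from the study. Of 27 genes, 14 had a cluster in MV4-11 (51.9%, against 6.55% of all genes) and 9 in U937 (33.3%, against 2.13%), 8 of them in both. LCP2, an adaptor of immune receptors, had 11 peaks in MV4-11 and 5 in U937, and all 5 U937 members were shared. PTPN6, the phosphatase SHP-1, had 11 in MV4-11 and 4 in U937, with 7 and 4 shared. RAC2, a GTPase of blood cells, had 5 and 4, LCP1 4 and 4, and FMNL1 4 and 4, of which the FMNL1 clusters did not overlap. INPP5A had 4 and 16 peaks in 2 clusters of MV4-11 and 6 in U937, and all 6 were shared. ARHGAP26 had 4 in MV4-11, none of them shared.

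Receptors and signaling genes followed with smaller counts. Cytokine and growth factor receptors had 6 of 20 genes in MV4-11 and 4 in U937. IFNGR2, a chain of the interferon gamma receptor, had 5 peaks in MV4-11 and 6 in U937, and every member was shared. IL4R had 7 and 4 peaks in clusters that did not overlap, CSF1R had 5, IL10RA 4 and IFNGR1 4 in MV4-11, and IL6R 5 in U937. TGF-beta and Notch genes had 5 of 14 in MV4-11 (35.7%, against 6.55% of all genes) and 4 in U937 (28.6%, against 2.13%). NOTCH1 had 20 peaks in MV4-11 and 5 in U937, LFNG 13 and 5, and SKI 9 and 5 at its overlapping clusters. SMAD3 had 11 and JAG1 4 in MV4-11, and SMAD7 4 in U937.

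Immediate early genes and feedback regulators had 8 of 25 in MV4-11 and 7 in U937. FOS had 9 peaks around the gene in MV4-11 and 6 in U937, and all 6 of the U937 members were shared, and a further 5 MV4-11 peaks farther off were not. JUND had 22 peaks in MV4-11 with 3 shared, EGR3 11, EGR1 4, and IER2 4 in MV4-11 and 6 in U937. ZFP36L2, an RNA-binding protein that destabilizes transcripts, had 4 clusters with 25 peaks in MV4-11 and 3 clusters with 14 peaks in U937, of which 12 and 12 were shared. FOSL1, DUSP5 and ZFP36 had 4 peaks each and ZFP36L1 5 in U937, the last within another gene, RAD51B.

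Chromatin regulators had 6 of 24 genes in MV4-11 and 2 in U937. DNMT3A, a DNA methyltransferase, had 4 peaks in MV4-11 and 5 in U937, and 4 of each were shared. HDAC5 and TET3 had 5 peaks each in MV4-11. Proto-oncogenes had 5 of 18 in MV4-11 (27.8%, against 6.55% of all genes) and 0 in U937. At the 2.13% of all genes in U937, a list of 18 would hold few or none. The 0 therefore does not set these genes apart. FLT3, a receptor kinase of AML, had 2 MV4-11 clusters of 4 and 5 peaks, PIM3 had 7, PIM1 6, BCL2 5 and CCND1 4. Shared members numbered 0 and 1 at FLT3, 2 each at PIM3 and PIM1, 1 at BCL2 and 0 at CCND1. These are to be read against 26.2% of all distal MV4-11 peaks, and clusters this small do not set the genes apart from that share.

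Effector genes of myeloid cells followed. Of 28 monocyte and granulocyte effectors, 6 had a cluster in MV4-11 (21.4%, against 6.55% of all genes) and 3 in U937 (10.7%, against 2.13%). PRTN3, in the locus of neutrophil granule proteases with ELANE and AZU1, had 21 peaks in MV4-11, of which 3 were shared. ITGB2, the common chain of leukocyte integrins, had 8 in U937. MPO had 4 in MV4-11 with none shared, ITGAX 4 and FCGR1A 9. The clusters nearest to FCGR2A, of 17 peaks in MV4-11 and 7 in U937, lay in sequence with 96.0% and 75.1% repeated words. Of 23 inflammatory genes, CCL2 alone had a cluster, of 5 peaks in MV4-11 and 6 in U937, with 3 of each shared. That was 4.35% of the list in each line, below the share over all genes in MV4-11 and above it in U937.

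The HOX list had 1 of 17 genes in each line (5.88%, against 6.55% of all genes in MV4-11 and 2.13% in U937). It was HOXA10, with 9 peaks in MV4-11 and 7 in U937, of which 9 and 6 were shared. That cluster ran across the HOXA locus, and its span held the TSSs of HOXA3, HOXA7, HOXA9 and HOXA11 too. Markers of other cell types had few clusters or none. At the shares over all genes, 6.55% in MV4-11 and 2.13% in U937, lists this short would hold few too. These counts therefore do not set the markers apart from other genes. T cell markers had 0 of 19 in each line, hepatocyte markers 0 of 10, neuron markers 0 of 12 and olfactory receptor genes 0 of 15. B cell markers had 1 of 12 in MV4-11 (CD79A, 6 peaks) and 0 in U937, and erythroid and megakaryocyte markers had 0 in MV4-11 and 1 of 12 in U937 (SLC4A1, 4 peaks). Ribosomal protein genes had 5 of 22 in MV4-11 (22.7%, against 6.55% of all genes) and 1 in U937 (4.55%, against 2.13%). Their MV4-11 share was thus close to the 21.4% of the monocyte and granulocyte effectors. RPL3 had a cluster in both lines, of 14 and 6 peaks. All lists were chosen with earlier results of these data known and were not matched on the distance to neighbouring genes.

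The placement of clusters on genes differed between the lines. A protein-coding TSS lay within the span of 51.9% of MV4-11 clusters (49.4 to 54.5) and 41.1% of U937 clusters (36.7 to 45.6). A promoter peak of the same line lay within 41.5% (39.0 to 44.1) and 25.9% (22.1 to 30.1). The whole span lay in 1 protein-coding gene in 25.1% of MV4-11 and 33.7% of U937 clusters, and touched no such gene in 18.5% and 23.3%. Member peaks in MV4-11 were exonic in 14% of cases (13.4 to 14.8) against 8.42% of distal peaks outside clusters (7.99 to 8.87). In U937 these shares were 8.21% (7.20 to 9.34) and 8.22% (7.70 to 8.77).

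Chromosome 19 carried far more MV4-11 clusters than its length, and the excess was smaller in U937. It held 223 MV4-11 clusters (15.5%), or 38 per 10 Mb, and 48 U937 clusters (10.4%), or 8.19 per 10 Mb. It is also the most gene-dense chromosome, with 7.39% of protein-coding genes. Per 100 genes it had 15.1 MV4-11 and 3.25 U937 clusters, against 13.4 and 3.8 on chromosome 22 and 11.0 and 4.95 on chromosome 20. Chromosome 16 had 11.8 and 2.80, and chromosome 21 had 7.73 and 6.36. Per gene, U937 thus had more clusters on chromosomes 20, 21 and 22 than on chromosome 19. In MV4-11 68.7% of its distal peaks lay in clusters, and in U937 26.9%. The fewest clusters per 10 Mb in MV4-11 were on chromosomes X (1.09), 18 (1.12), 13 (1.22) and 4 (1.31), and U937 had 0.256, 0.747, 0.525 and 0.263 there. Copy number differs between such lines and was not tested.

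**Figure D5:**
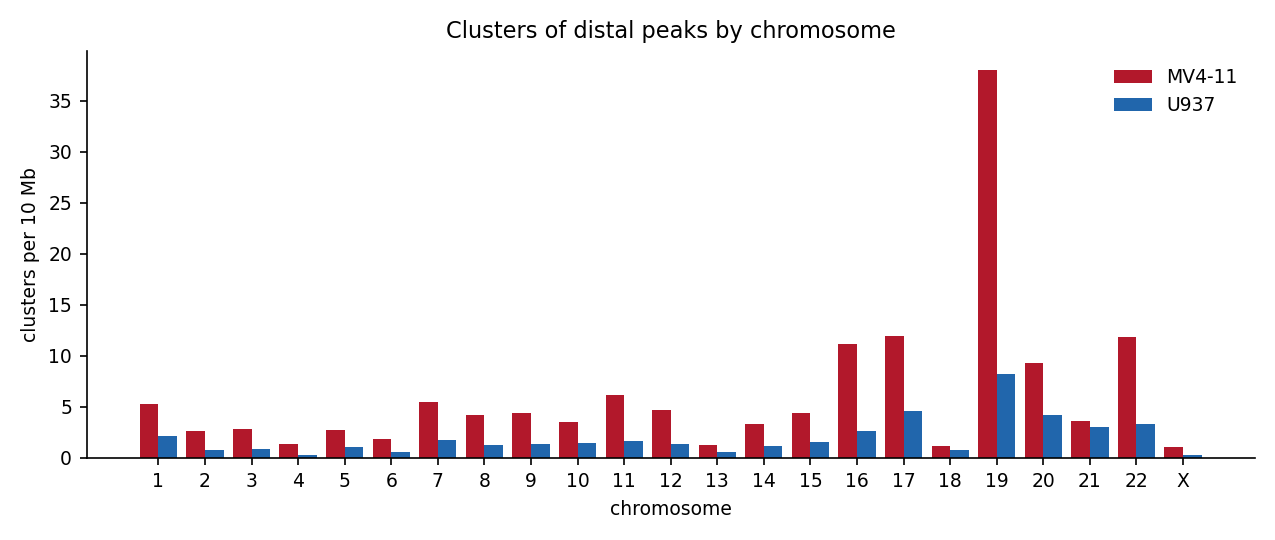
Clusters per 10 Mb on each chromosome (horizontal axis) in MV4-11 (red) and U937 (blue). Chromosome 19 stands out with 38 in MV4-11 and 8.19 in U937, and chromosomes 16, 17 and 22 follow in MV4-11 with 11.2, 11.9 and 11.8.

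The DNA under clustered peaks was richer in G and C than that under other distal peaks. The median GC content of the central 300 bp was 57.0% in clusters and 53.3% outside them in MV4-11, and 56.3% and 55% in U937. In MV4-11, clustered peaks that were shared and those that were not both had a median of 57.0%. Outside clusters the medians of MV4-11 were 55.7% for shared peaks and 52.3% for those not shared.

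Motifs of myeloid factors were less frequent in MV4-11 clusters than in its other distal peaks. So were some of the other motifs searched, which are given further below. The PU.1 sequence GAGGAAGT occurred on either strand in 4.09% of clustered MV4-11 peaks (3.70 to 4.51) against 5.75% outside clusters (5.39 to 6.13), with 5.12% over all distal peaks. The RUNX sequence TGTGGTT occurred in 7.22% (6.72 to 7.77) against 10.8% (10.3 to 11.3), with 9.42% over all. The C/EBP sequence TTGCNNAA was found in 10.6% against 13.9%, with 12.7% over all, and the AP-1 sequence TGANTCA in 9.66% against 12.2%, with 11.2% over all. GC content moved with these shares. In peaks of 45 to 55% GC the RUNX sequence still differed, at 9.60% (8.64 to 10.6) against 13% (12.2 to 13.8), as did the PU.1 sequence, at 4.87% (4.19 to 5.66) against 6.55% (6.02 to 7.12). Above 55% GC the RUNX sequence stood at 5.28% (4.73 to 5.9) against 6.87% (6.28 to 7.52), and the C/EBP sequence at 7.17% (6.53 to 7.87) against 7.54% (6.92 to 8.22), with overlapping intervals. Below 45% GC the intervals overlapped for all 4 motifs, and the C/EBP sequence stood at 27.2% (22.9 to 32) in clusters against 26.3% (23.9 to 28.8) outside.

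In U937 the same motifs were about as frequent inside clusters as outside. The AP-1 sequence occurred in 14.2% of both, the PU.1 sequence in 4.32% and 4.24%, and the RUNX sequence in 6.26% and 6.85%, with 14.2%, 4.26% and 6.74% over all distal peaks. The C/EBP sequence occurred in 10.8% inside and 12.1% outside, with 11.9% over all. The sequence AGATAA, bound by GATA factors, was found in 6.57% of clustered MV4-11 peaks (8.04% over all) and 7.34% of clustered U937 peaks (7.33% over all). The E-box CAGCTG was found in 24.8% (24.6% over all) and 22% (21.5%), and the MYB sequence AACTGNC in 11.6% (13.3%) and 12.3% (11.8%). CAGAAT, the core of a known ZNF217 motif, was found in 12.5% (14.3%) and 12.4% (13.1%). In MV4-11 peaks outside clusters AGATAA stood at 8.93%, the MYB sequence at 14.3% and CAGAAT at 15.3%, each above its share in clusters. The E-box stood at 24.5% there. The ETS sequence CCGGAAGT, which shares its last 6 letters with the PU.1 sequence but cannot match at the same place, was rare in MV4-11 at 0.576% of clustered peaks, and the CTCF motif was found in 4.23% (4.48%) and 3.53% (3.37%).

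Clustered MV4-11 peaks that were shared with U937 held more of some motifs than those that were not. The AP-1 sequence occurred in 13.4% of shared (12.2 to 14.7) and 8.01% of other clustered MV4-11 peaks (7.38 to 8.70). The PU.1 sequence was found in 5.93% (5.12 to 6.85) and 3.28% (2.87 to 3.74), and the C/EBP sequence in 13.3% (12.2 to 14.6) and 9.43% (8.74 to 10.2). The RUNX sequence stood at 7.63% (6.72 to 8.66) and 7.04% (6.45 to 7.69), with overlapping intervals. In U937 the E-box differed between shared and other clustered peaks, at 23.9% (21.9 to 26) and 18.5% (16 to 21.2), and the AP-1 sequence stood at 14.4% (12.8 to 16.2) and 13.7% (11.6 to 16.1). The E-box split of U937 and the AP-1 split of MV4-11 were also seen outside clusters. There the E-box was found in 23.6% of shared and 19.3% of other U937 peaks. The AP-1 sequence was found there in 15.5% of shared and 11.1% of other MV4-11 peaks. For the PU.1 and C/EBP sequences the intervals of shared and other MV4-11 peaks outside clusters overlapped. The PU.1 intervals were 5.27 to 6.82% for shared and 5.26 to 6.10% for other peaks. The C/EBP sequence stood at 14.5% (13.4 to 15.7) and 13.8% (13.1 to 14.4). At the clusters named above, AP-1 matches were found in 4 of 13 MV4-11 and 4 of 12 U937 members at UACA, in 3 of 13 and 3 of 17 at CD93, and in 0 of 20 and 4 of 14 at CEBPA. C/EBP matches were found in 3 of 15 members of each line at TNFRSF1B. A match describes the letters only and does not show that a factor binds there.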

How the data were processed

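ZNF217 CUT&Tag peaks of MV4-11 and U937 were analysed, with 1 library per line. According to the study's methods and the submitters' processing notes, alignment used Bowtie2 2.4.4 against hg38 and MACS3 3.0 called the peaks (q 0.01, paired-end fragments). Use of the IgG control, duplicate removal and blacklists are not given in the sources used here. The deposited lists hold positions, a unit other than signal: the authors give chromosome, start and end, with no counts, so depth is unknown. Whether the start counts from 0 or 1 was not stated, an uncertainty of 1 bp.

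Chromosomes 1 to 22 and X were used. Peaks overlapped when they shared at least 1 bp, and clusters when their spans did. The nearest gene was the protein-coding gene with the TSS closest to the midpoint of the span. Motifs were matched exactly, on either strand, in the 300 bp around each peak's midpoint. Repeated sequence was the percent of 31-base words found more than once in the span, and its limit of 20% was set after the data were seen. Words that recur only elsewhere in the genome were not counted. The 4 width classes were cut at the quartiles of all distal peaks of a line. No p-value was calculated, since each line had 1 library. Shares have 95% Wilson intervals. The rule and overlap counts were tested on simulated peaks.

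Genes were named by rule: the 12 clusters with most peaks per line, the 10 pairs with most overlapping members, the 10 largest clusters per line without a peak of the other, all genes of the 3 study lists with RUNX1 and MYC, and up to 6 genes of each other list with a cluster. The members, the 20 gene lists and the rules were chosen with earlier results of these data known. Alternatives were other joining distances (5 and 25 kb), peak numbers (3 and 6), TSS definitions, widths of at least 400 bp, lists of equal length, merging within 500 bp, and other overlaps. The software was samtools 1.23.1 and pysam 0.24.0 for the genome, and pandas 2.3.3, SciPy 1.17.1, NumPy 2.4.6 and Matplotlib 3.10.9 under Python 3.11.15. Some genes and sequences that these rules name are not reported here.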

Additional observations from a re-analysis of the deposited data

How the results depend on the processing

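MV4-11 clusters numbered 795 with 5 kb joining, 2439 at 3 peaks, 640 at 6 peaks, 910 with peaks of at least 400 bp and 530 with lists of equal length. U937 clusters numbered 186 with 5 kb joining, 917 at 3 peaks and 142 at 6 peaks. The share of MV4-11 clusters overlapping a U937 cluster was 11.6% at 5 kb, 31.3% at 25 kb, 25.9% at 3 peaks, 15.9% at 6 peaks, 18% with TSSs of every gene type, 37.2% with equal lists and 12.9% at reciprocal 50%. The share of U937 clusters overlapping an MV4-11 cluster was 51.1% at 5 kb, 79.9% at 25 kb, 61.9% with TSSs of every gene type, 65.9% with TSSs of every transcript of protein-coding genes (added after the data were seen), 63.8% at 400 bp, 43.0% with equal lists and 40.4% at reciprocal 50%. Clustered MV4-11 peaks were shared in 29.2% at 25 kb, 33.9% at 400 bp, 44.7% with equal lists, 17.3% at reciprocal 50% and 33.9% within 500 bp. Clustered U937 peaks were shared in 67.7% at 5 kb, 61.2% with TSSs of every gene type, 52.9% with equal lists, 35.7% at reciprocal 50% and 68.8% within 500 bp. A U937 peak lay in 76.1% of MV4-11 clusters at 5 kb and also at 3 peaks, 86.4% at 25 kb, 91.6% at 6 peaks, 82.3% with distal beyond 2 kb, 82.2% with TSSs of every gene type and 91.3% with equal lists. An MV4-11 peak lay in 93.0% of U937 clusters at 3 peaks, 98.6% at 6 peaks and 93.3% with equal lists. Leaving out repeated sequence, also added after the data were seen, moved none of these 8 results beyond its interval or 1.5 times its count. MV4-11 had more clusters than U937 under every alternative, between 1.15 and 4.51 for each U937 cluster. The cause of these shifts was not tested beyond what each rule changes by construction. No paired analysis was possible because each line has 1 library and the comparison comes from no test.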
